A study of Homo sapiens with 52 samples.

Results

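Entinostat was followed in RH4 cells at 1, 6 and 24 h, and each treated sample was set against the DMSO sample of the same time. The genes described had a TPM of 5 or more in at least 1 of these 6 samples, which held for 12160 of the 27043 gene names in the files. TPM is a transcript level corrected for gene length and scaled to the same total in every sample. The 6 samples belong to a series of 52 RNA-seq samples from fusion-positive rhabdomyosarcoma (FP-RMS) cells exposed to chromatin-directed compounds. RH4 is an established FP-RMS cell line that carries the PAX3-FOXO1 fusion, and all 6 samples share that background. Entinostat was given at 1 µM, the controls received DMSO, the solvent, at 0.1%, and each time and treatment had 1 sample. The comparison asks how soon transcript levels move when HDAC1, HDAC2 and HDAC3, the targets named in the labels, are inhibited. With 1 sample a group no test of a single time was possible. Every difference below is in log2(TPM + 1), treated minus DMSO, and the only spread available was that among the 3 DMSO times.

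Histone deacetylases (HDACs) remove acetyl groups from histone tails and work inside corepressor complexes, so their inhibition raises histone acetylation at many genes. Entinostat is a benzamide that acts on the class I enzymes. FP-RMS cells are arrested on the way to skeletal muscle: they express MYOD1 and MYOG, the myogenic regulators, without completing differentiation. A small set of transcription factors, the core regulatory TFs (CR TFs), drives large enhancers in these cells, with the fusion protein among them.

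The libraries were of similar depth. Depths of 23322633 to 34183310 reads per sample were worked out from the steps in the TPM values, and 13181 to 14833 genes reached a TPM of 1. The cells carried the marks of their lineage in DMSO, where MYOD1 lay between 346 and 405 TPM, MYOG between 546 and 633 TPM and FGFR4 between 605 and 677 TPM. DES, ALK, TFAP2B and PIPOX were also above 20 TPM in each DMSO sample, whereas CDH3, another FP-RMS marker, did not exceed 0.407 TPM. Of 15 markers of blood, endothelium and epithelium 0 reached the filter. Of 5 fibroblast markers 3 did, and their summed TPM (all 5) was 17.9 to 20.5 in DMSO and 17.7, 33.3 and 43.5 in entinostat at 1, 6 and 24 h. Most of the last value came from PDGFRB and from LUM, which stood at 16.2 TPM at 24 h against 0.475 TPM in DMSO. In bulk samples a change in the cells present and a change in RNA per cell cannot be told apart.

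The number of genes that differed grew with time. At 1 h 53 genes (0.436%) were past a difference of 1 in size, 27 higher (0.222%) and 26 lower (0.214%). At 6 h the count was 681 (5.6%), with 598 higher (4.92%) and 83 lower (0.683%), and at 24 h it was 2839 (23.3%), with 1984 higher (16.3%) and 855 lower (7.03%). The same size was passed by 70 genes between DMSO at 6 h and at 1 h (0.576%), by 74 between 24 h and 6 h (0.609%) and by 65 between 24 h and 1 h (0.535%). Thus the 1 h count lay below each of the DMSO counts, and the 6 h and 24 h counts lay above all of them. The SD of the differences over genes was 0.17 at 1 h, 0.50 at 6 h and 0.99 at 24 h, against 0.20 to 0.24 between DMSO times. The median difference stayed between -0.03 and 0.04.

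**Figure D1:**
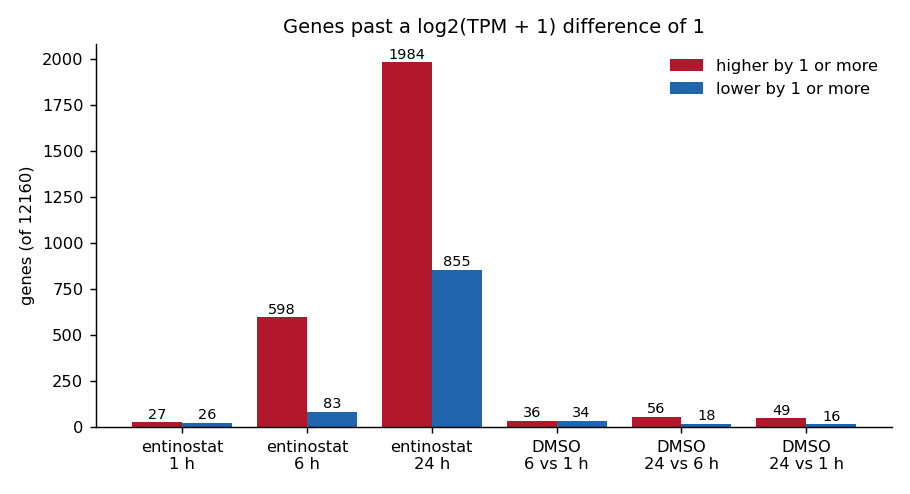
Number of genes (y axis) higher (red) or lower (blue) by 1 or more in log2(TPM + 1), for entinostat against DMSO of the same time and for the 3 pairs of DMSO times, over 12160 genes with 1 sample on each side. The bars at 1 h (27 and 26 genes) are of the order of those between DMSO samples (36 to 56 higher, 16 to 34 lower), while 598 and 1984 genes were higher at 6 h and 24 h.

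The excess of higher genes depended in part on which genes could enter. Of the 12160 genes, 10858 reached a TPM of 5 in a DMSO sample, 75 of them in no entinostat sample, and the rest reached it only in an entinostat sample. A gene that entered only through a treated sample was low in every DMSO sample, so counts of higher genes include members that had to differ. With the filter placed on the DMSO samples alone, a choice made after seeing the data, the share of higher genes among those past 1 was 74.4% in place of 87.8% at 6 h and 54.9% in place of 69.9% at 24 h.

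Genes were then sorted by time. An early gene was past 1 at 1 h only, a transient gene at 6 h and not at 24 h, a sustained gene in the same direction at 6 h and 24 h, and a late gene at 24 h only. By this sorting 22 genes were early, 173 transient, 489 sustained, 2316 late and 37 mixed. Mixed genes were past 1 in opposite directions, or at 1 h and 24 h without 6 h. The 1 h direction was not used for sustained genes. The other 9123 genes were past 1 at no time. Of the 681 genes past 1 at 6 h, 71.8% were past 1 in the same direction at 24 h, with 75.1% of the higher and 48.2% of the lower genes. The treated value lay outside the range of the 3 DMSO values, on the side of the difference, in 447 of 449 sustained higher genes, 1520 of 1523 late higher genes and 793 of 793 late lower genes. For transient genes this held in 130 of 134 higher and 34 of 39 lower genes, and for early genes in 8 of 11 each way. Since 1 of the 3 DMSO samples is the control that set the difference, these counts are largely fixed by the sorting.

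Values on either side of the fixed size lay close together. At 6 h TPGS1, at 12.9 TPM in DMSO and 5.95 TPM in entinostat, was just inside on the lower side, and PRDM12, at 112 and 55.3 TPM, was just outside. At 24 h TTC13, at 18.1 and 37.2 TPM, was just inside on the upper side, and IER2, at 24.9 and 50.9 TPM, was just outside. Between 0.9 and 1 in size stood 231 genes at 6 h and 512 genes at 24 h.

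**Figure D2:**
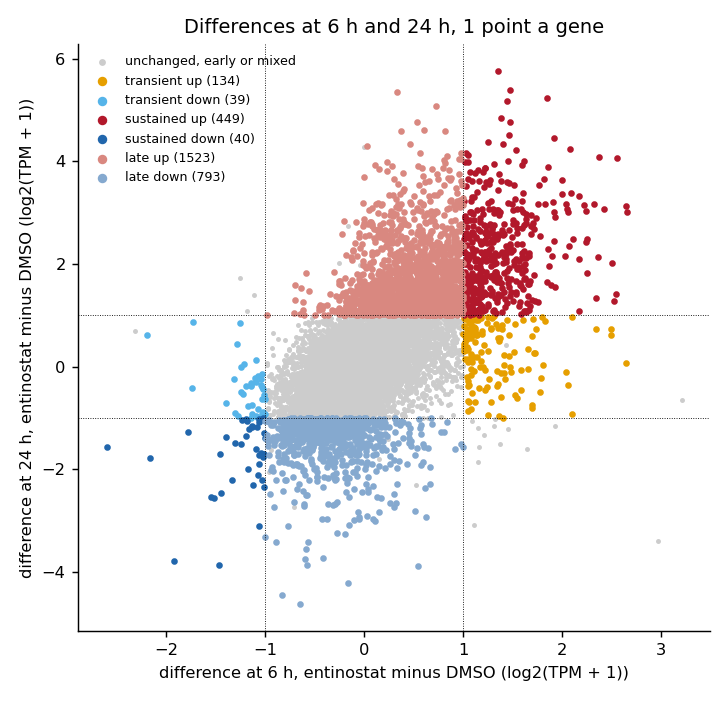
Difference between entinostat and DMSO in log2(TPM + 1) at 6 h (x axis) and at 24 h (y axis), 1 point a gene, coloured by time class with the number of genes in the legend. Dotted lines mark a difference of 1 in size. The 1523 late higher genes lie above the upper line and left of the line at 1, most of them right of 0, and the 134 transient higher genes form the orange strip on the right.

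At 1 h the genes past 1 were almost all small RNA genes. They were microRNA, small nucleolar, small nuclear, Y and 7SL or 7SK RNA names, and they made up 49 of the 53 genes, although 308 of the 12160 genes were of this kind. The same names made up 114 of the 136 genes whose 3 DMSO values spanned 1 or more. Without them 4 genes were past 1 at 1 h. RNVU1-20, a variant U1 gene outside the name rule for small RNAs, had 4 reads in DMSO and 0 in entinostat at 1 h. CDC37L1-AS1 lay between 3.83 and 7.09 TPM within DMSO and at 8.75 TPM in entinostat at 1 h. CSNK2A3, a near-identical copy of the casein kinase gene CSNK2A1, stood at 2.79, 2.44 and 33.7 TPM in DMSO at 1, 6 and 24 h and at 33.1, 25.9 and 2.31 TPM in entinostat. Its DMSO samples alone span as much as the difference, and its values are uncertain because reads of the copies cannot be told apart well. The fourth was HIST1H4E, a core histone gene, with 5.13 TPM from 22 reads in DMSO and 2.01 TPM from 7 reads in entinostat. Among genes outside the small RNAs, HIST1H4E was the only early gene, and it was clear of the DMSO spread. All 33 gene lists examined had 0 members past 1 at 1 h.

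The smaller movements at 1 h included genes of the immediate early response, which cells switch on within minutes of a stimulus. The list median at 1 h was 0.09 against 0.00 over all genes, with 17 of 19 members above 0 and 2 below. This was not particular to the list, since ERK feedback genes had 0.11 and WNT antagonists and targets 0.09. The median over all genes between DMSO at 24 h and at 1 h was also 0.09. JUN, a subunit of the AP-1 transcription factor, stood at 167, 186 and 168 TPM in DMSO and at 240, 248 and 247 TPM in entinostat, above all DMSO values at each time and never past 1. MYC was between 88.4 and 92.4 TPM in DMSO and at 125, 107 and 59.1 TPM in entinostat, so it was above its DMSO range at 1 h and 6 h and below it at 24 h. PLK2, a stress-induced polo-like kinase from another list, had the difference 0.65 at 1 h, 1.54 at 6 h and 2.70 at 24 h.

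The transient higher genes held several genes of striated muscle. LMOD3, which nucleates actin filaments in the sarcomere and lies at chr3:69157823-69171746 in hg19, stood at 2.20, 1.73 and 3.07 TPM in DMSO and at 2.01, 12.8 and 5.77 TPM in entinostat at 1, 6 and 24 h. MYBPH, the myosin-binding protein H of the thick filament, was at 11.8, 9.88 and 12.2 TPM in DMSO and at 10.2, 34.2 and 6.60 TPM in entinostat. Both were above every DMSO value at 6 h, and by 24 h MYBPH was below every DMSO value. The differences of MYBPH were -0.19, 1.69 and -0.80, and those of LMOD3 were -0.09, 2.34 and 0.73. MYH8, the perinatal myosin heavy chain, was at 3.95 TPM in DMSO and 9.23 TPM in entinostat at 6 h and at 4.94 and 5.55 TPM at 24 h.

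MYADML2, whose function is not well described, and CIDEC, a lipid droplet protein, were the other transient higher genes with a protein product among the 5 with the largest 6 h difference. MYADML2 stood at 3.44, 2.30 and 3.63 TPM in DMSO and at 4.23, 17.5 and 6.13 TPM in entinostat. CIDEC stood at 0.470, 0.903 and 1.18 TPM in DMSO and at 0.577, 9.73 and 2.63 TPM in entinostat, its 6 h values resting on 13 reads and 175 reads. The long noncoding genes LINC00589 and LINC01353 completed the 5, with 6 h differences of 2.10 each. Further muscle genes in the class, chosen after their values were seen, were SMYD1, a methyltransferase of developing muscle, at 8.67 and 21.9 TPM at 6 h, and SRL, a calcium store protein, at 4.04 and 15.3 TPM at 6 h. KLHL30, MLIP and HFE2 had 6 h differences of 1.04, 1.11 and 1.28 and 24 h differences of 0.09, -0.69 and -0.68. ERBB3, a receptor of the neuregulin ligands that was likewise chosen after its values were seen, went from 29.4 to 71.1 TPM at 6 h and from 33.8 to 17.2 TPM at 24 h.

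The 250 bases before the RefSeq start are shown for 5 transient higher genes that code for protein, LMOD3, MYADML2 and CIDEC from the largest differences and MYBPH and MYH8 from the sarcomere list, since their promoters can be set beside a shared time pattern. The sequences are those of RefSeq for GRCh38.p14, not of the hg19 build of the files. Capitals mark CAGCTG, an E-box of the form that MYOD1 and MYOG bind, and TATAAA, a form of the TATA box. Each was searched on both strands (the reverse complement of TATAAA reads TTTATA), with no overlap between them.
MYBPH, chr1:203175827-203176076, minus strand: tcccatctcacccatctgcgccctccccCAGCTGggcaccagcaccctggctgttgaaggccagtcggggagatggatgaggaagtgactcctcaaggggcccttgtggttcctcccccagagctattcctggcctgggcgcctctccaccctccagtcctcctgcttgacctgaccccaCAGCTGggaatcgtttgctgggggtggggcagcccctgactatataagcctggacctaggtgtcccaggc
MYH8, chr17:10421951-10422200, minus strand: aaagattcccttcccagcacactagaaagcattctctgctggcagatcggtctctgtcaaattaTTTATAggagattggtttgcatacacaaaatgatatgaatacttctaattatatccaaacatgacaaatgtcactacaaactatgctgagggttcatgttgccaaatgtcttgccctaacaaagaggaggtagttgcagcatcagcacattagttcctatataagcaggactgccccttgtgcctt
LMOD3, chr3:69122596-69122845, minus strand: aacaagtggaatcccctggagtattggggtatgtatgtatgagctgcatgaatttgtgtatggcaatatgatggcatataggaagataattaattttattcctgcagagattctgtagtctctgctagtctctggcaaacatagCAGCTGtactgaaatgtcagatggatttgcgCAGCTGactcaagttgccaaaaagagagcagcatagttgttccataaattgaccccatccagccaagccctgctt
MYADML2, chr17:81947234-81947483, minus strand: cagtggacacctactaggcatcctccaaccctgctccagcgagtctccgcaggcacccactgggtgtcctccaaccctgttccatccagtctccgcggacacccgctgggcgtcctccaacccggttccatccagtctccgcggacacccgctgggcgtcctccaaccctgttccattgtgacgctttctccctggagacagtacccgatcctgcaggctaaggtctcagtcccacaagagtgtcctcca
CIDEC, chr3:9880254-9880503, minus strand: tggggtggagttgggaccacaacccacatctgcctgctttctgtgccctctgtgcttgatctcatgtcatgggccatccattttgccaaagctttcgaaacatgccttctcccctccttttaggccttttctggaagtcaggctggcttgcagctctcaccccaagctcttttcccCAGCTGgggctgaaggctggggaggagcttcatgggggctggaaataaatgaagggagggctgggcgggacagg
CAGCTG was found 2 times before MYBPH, 2 times before LMOD3 and 1 time before CIDEC, and TATAAA 1 time before MYH8. The MYH8 match is the reverse complement and lies far from the start. Other forms of the TATA box were not searched, so the tatataag near the end of the MYBPH and MYH8 stretches is unmarked. Of 35116 RefSeq promoter windows of the same length, 14.0% held CAGCTG and 10.7% held TATAAA. A match is a description of the letters and not a measured binding site. RefSeq promoters matched 63.4% of the transient higher genes, too few to compare promoter composition between classes.

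The median DMSO level of the 134 transient higher genes was 4.41 TPM, which the filter largely fixes, since 64 of them entered only through an entinostat sample and so were under 5 TPM in DMSO. At 24 h their median difference was 0.35. Of the 134, 59 were within 0.5 of DMSO at 24 h, 44 were below DMSO, and 60 had dropped by 1 or more between the differences at 6 h and at 24 h. Measured against each of the 3 DMSO samples by the full size, 58 of the 134 kept the class. The spread between treated replicates is not known.

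Transient lower genes were fewer. YPEL5, a small zinc-binding protein of a ubiquitin ligase complex, stood at 42.6, 39.3 and 39.8 TPM in DMSO and at 41.4, 15.5 and 54.7 TPM in entinostat. RAB40B, a small GTPase, stood at 15.6 TPM in DMSO and 5.96 TPM in entinostat at 6 h, and at 14.5 and 14.3 TPM at 24 h. YPEL5 was below every DMSO value at 6 h alone and above every DMSO value at 24 h, and RAB40B, at 12.7 TPM in entinostat at 1 h, was below every DMSO value at 1 h and 6 h. GMEB2, with a 24 h difference of -0.99, RELB, a subunit of NF-kB, with -0.76, and SAP30L, of the SIN3 corepressor family, with -0.37, were still below DMSO of the same time. SIX2, a homeobox factor, was also in this class, at 113 and 55.1 TPM at 6 h and 115 and 61.6 TPM at 24 h. Its relative SIX4 went the other way, from 25.8 to 57.9 TPM at 6 h, with 29.5 and 33.8 TPM at 24 h.

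Sustained higher genes were led by genes that RH4 cells hardly expressed. SYNGR3, a synaptic vesicle protein, stood at 1.63, 1.42 and 1.62 TPM in DMSO and at 1.63, 14.2 and 20.3 TPM in entinostat. SLC40A1, the iron exporter ferroportin, was at 3.61, 3.72 and 4.56 TPM in DMSO and at 3.86, 23.4 and 93.2 TPM in entinostat. CEND1, a neuronal protein linked to cell cycle exit, was at 4.15 and 26.5 TPM at 6 h and at 4.46 and 45.2 TPM at 24 h. At 1 h SLC40A1 lay within its DMSO range and the other two just above it, and at 6 h and 24 h all were far above every DMSO value. PLIN5, a lipid droplet protein, and CLDN4, a tight junction protein, completed the 5, with 6 h differences of 2.64 and 2.55 and 24 h differences of 3.14 and 4.07. The median DMSO level of the 449 sustained higher genes was 2.68 TPM, and 296 of them entered only through an entinostat sample.

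Most of these genes went on moving after 6 h. The median difference of the sustained higher genes was 0.04 at 1 h, 1.28 at 6 h and 2.12 at 24 h. In 390 of 449 the 24 h difference was the larger, by 1 or more in 182, and in 3 it was smaller by 1 or more. The 40 sustained lower genes had medians of -0.04, -1.13 and -1.64, with the 24 h difference the lower in 31 of them.

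Of the CDK inhibitors, which halt the cell cycle, CDKN1A and CDKN2B were sustained. CDKN1A, encoding p21, stood at 41.6, 27.8 and 28.1 TPM in DMSO and at 49.1, 128 and 291 TPM in entinostat, with differences of 0.23, 2.16 and 3.32. CDKN2B, encoding p15, was at 0.640, 0.617 and 1.05 TPM in DMSO and at 0.732, 4.46 and 17.6 TPM in entinostat. CDKN2D was late, at 6.30 and 29.6 TPM at 24 h. Of 6 measured CDK inhibitors 2 were past 1 upward at 6 h and 3 at 24 h, where 4.92% and 16.3% of all genes were, and CDKN1B and CDKN2C were lower than DMSO at 24 h by less than 1. The list median was 0.55 at 6 h and 1.07 at 24 h, against -0.03 and 0.04 over all genes.

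Sustained lower genes included developmental transcription factors. DMRTA2 stood at 61.4, 51.1 and 48.2 TPM in DMSO and at 63.1, 16.8 and 7.44 TPM in entinostat, and DBX1, a homeobox factor of the neural tube, at 11.8, 11.2 and 8.76 TPM and at 13.2, 3.25 and 0.651 TPM. FOXF1, a forkhead factor, was the only member of the CR TF list in the class, with a 6 h difference of -1.01. It stood at 53.3, 58.8 and 57.4 TPM in DMSO and at 51.3, 28.7 and 10.5 TPM in entinostat. All 3 were within or near the DMSO range at 1 h and lower at 6 h and again at 24 h. With the DMSO sample of N1302 as 6 h control the 6 h differences of DMRTA2 and DBX1 were -0.01 and -0.04, in place of -1.55 and -1.52, so their place in the class rests on the time-matched control. IGF2-AS, with differences of -1.93 and -3.78 at 6 h and 24 h, overlaps IGF2 on the other strand, and the strand of counting is not given in the sources used here, so reads of the pair may be mixed. ANK1, which anchors the membrane skeleton, and B3GALT2, a galactosyltransferase, completed the 5, with 24 h differences of -3.87 and -1.69. The acetyltransferase gene KAT5 was also past 1 downward at both times, at 19.2 and 9.03 TPM at 6 h and 20.1 and 9.22 TPM at 24 h.

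**Figure D3:**
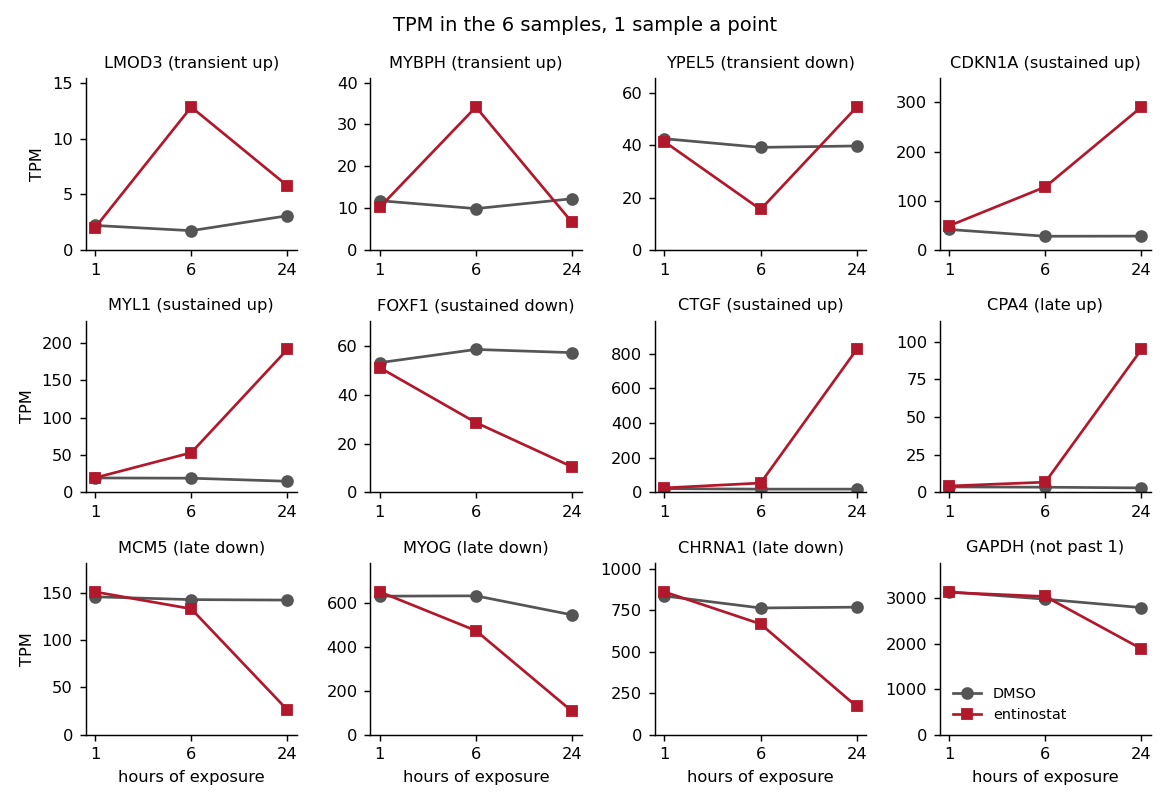
TPM (y axis, from 0, a scale for each gene) at 1, 6 and 24 h (x axis, equally spaced) in DMSO (grey circles) and entinostat (red squares), 1 sample a point and no error bar. LMOD3 and MYBPH peak at 6 h, CDKN1A climbs through 128 to 291 TPM, MCM5, MYOG and CHRNA1 have most of their drop after 6 h, and GAPDH stays within a difference of 1.

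Late genes formed the largest class, and most were already on the same side of DMSO at 6 h. SLITRK6, a neuronal membrane protein, was at 0.414 and 1.15 TPM at 6 h and 0.444 and 34.5 TPM at 24 h. CPA4, a carboxypeptidase, was at 3.62, 3.43 and 2.96 TPM in DMSO and at 4.22, 6.78 and 94.8 TPM in entinostat. CEACAM22P, a pseudogene whose reads could belong to its relatives, and TMEM59L had 24 h differences of 5.36 and 5.08. In these genes other than CPA4 the DMSO values rest on few reads, such as 8 reads for TMEM59L at 6 h, so the size of the difference is uncertain. The 1523 late higher genes had a median 6 h difference of 0.45, and 1360 of them were above 0 at 6 h, against 5725 of all 12160 genes. The 793 late lower genes had a median 6 h difference of -0.36, and 670 were below 0, against 6432 of all genes.

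The late lower genes had a median DMSO level of 49.1 TPM, against 34.3 TPM for the genes past 1 at no time. A gene with almost no reads in DMSO cannot be lower by this size. CCDC154, a coiled-coil protein, stood at 160, 155 and 127 TPM in DMSO and at 165, 98.7 and 4.18 TPM in entinostat. IL1RAPL2, an interleukin receptor-like membrane protein, stood at 68.6, 64.7 and 72.7 TPM in DMSO and at 81.3, 35.9 and 2.36 TPM in entinostat. C1orf105, PRR32 and LMF1-AS1 completed the 5, with 24 h differences of -4.21, -3.88 and -3.86. At 6 h PRR32 was higher than DMSO, by 0.55. The span of the late lower genes on the genome, from the coordinates in the files, had a median of 14345 bases, against 38195 bases for late higher genes and 28429 bases for the genes past 1 at no time.

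The CR TFs moved at 6 h and more at 24 h. At 6 h 1 of 6 was past 1, FOXF1, which at -1.01 was just inside the size. The study's main text does not name FOXF1 among the CR TFs. At 24 h 5 of 6 were past 1, all downward. The list medians were -0.71 at 6 h and -1.95 at 24 h. Over all genes 0.683% and 7.03% were past 1 downward at these times, and the medians were -0.03 and 0.04. MYOD1 stood at 346, 405 and 367 TPM in DMSO and at 371, 255 and 113 TPM in entinostat. SOX8 stood at 496, 499 and 492 TPM in DMSO and at 541, 269 and 106 TPM in entinostat. Among the 5 past 1 at 24 h, MYOG had the smallest 6 h difference, -0.42. It was at 633 and 474 TPM at 6 h and 546 and 107 TPM at 24 h. MYCN had differences of -0.76 and -1.25. PAX3, whose reads may include those of the fusion gene, was at 22.2 and 18.3 TPM at 6 h and 21.1 and 27.2 TPM at 24 h, and so was the member that was not lower at 24 h. At 1 h none of the 6 was lower than its DMSO sample by more than 0.06.

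Markers of FP-RMS and genes of the muscle synapse were also past 1 mainly at 24 h, when 7.03% of all genes were past 1 downward and 16.3% upward. TFAP2B, a transcription factor among these markers, already had a difference of -0.91 at 6 h. Of 16 measured FP-RMS markers 9 were past 1 downward at 24 h and 3 upward, after 0 downward and 1 upward at 6 h. FGF8, a growth factor, was at 120 and 92.3 TPM at 6 h and at 103 and 12.3 TPM at 24 h, and ALK, a receptor kinase, at 21.0 and 18.8 TPM and at 20.8 and 2.76 TPM. PODXL, DCX and CRMP1 went up instead, with 24 h differences of 2.80, 1.47 and 1.16. Of 11 measured genes of the muscle synapse and excitation 8 were past 1 downward at 24 h and 0 at 6 h, with a median of -1.85. CHRNA1, the alpha subunit of the muscle acetylcholine receptor, stood at 837, 765 and 770 TPM in DMSO and at 862, 668 and 171 TPM in entinostat. CHRNB1, CHRND and CHRNG, its other subunits, had 24 h differences of -1.85, -1.93 and -2.56. NCAM1, a cell adhesion molecule, was past 1 upward, at 108 and 366 TPM.

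The sarcomere genes did not move as 1 block. At 6 h 4 of 18 were past 1 upward and 0 downward, with a median of 0.53, beside 4.92% and 0.683% of all genes. At 24 h 4 were past 1 upward and 3 downward, with a median of 0.13, beside 16.3% and 7.03%. MYL1, a fast light chain, stood at 19.3, 18.9 and 14.8 TPM in DMSO and at 19.5, 53.1 and 191 TPM in entinostat. TNNC2, fast troponin C, was also sustained, at 11.5 and 30.2 TPM at 6 h and 12.7 and 48.2 TPM at 24 h. In contrast TNNT2, cardiac troponin T, was at 402 and 428 TPM at 6 h and at 428 and 129 TPM at 24 h, and TPM2, a tropomyosin, was at 1224 and 488 TPM at 24 h. Thus members were sustained, late in both directions, and transient, MYBPH and MYH8 being the transient ones.

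Genes of DNA replication had most of their difference at 24 h. Of 24 measured members 0 were past 1 at 6 h and 17 at 24 h, all downward, against 7.03% of all genes, with medians of -0.11 and -1.45. At 6 h 16 of the 24 were below 0, RRM2, a subunit of ribonucleotide reductase, being the farthest at 290 and 157 TPM, and at 24 h all 24 were. MCM5, a subunit of the replicative helicase, stood at 146, 143 and 142 TPM in DMSO and at 151, 133 and 26.3 TPM in entinostat. PCNA, the polymerase clamp, was at 514 and 537 TPM at 6 h and 555 and 208 TPM at 24 h, and E2F1, a driver of S phase genes, at 178 and 167 TPM and at 204 and 48.2 TPM. The genes of G2 and mitosis moved less. Of 24 members 2, CCNA2 and PLK1, were past 1 downward at 24 h, with a list median of -0.28. MKI67, a proliferation marker, was at 167 and 108 TPM at 24 h.

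**Figure D4:**
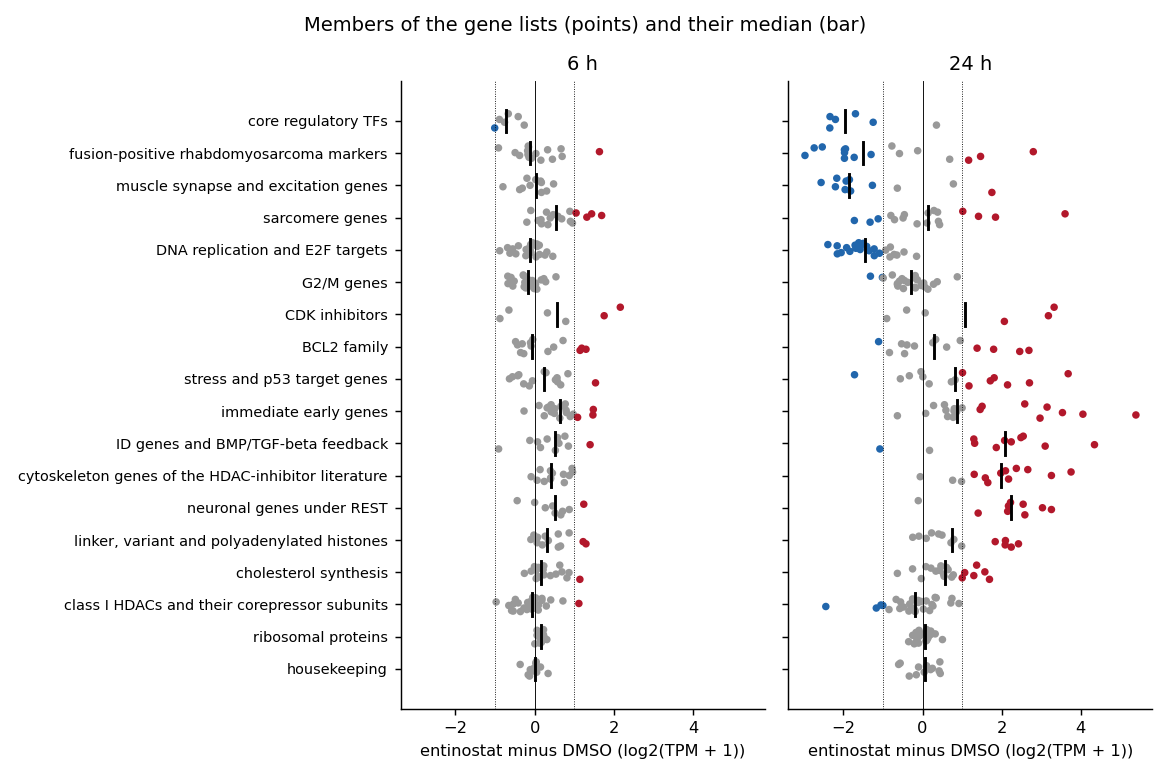
Differences in log2(TPM + 1) between entinostat and DMSO at 6 h (left) and 24 h (right) for the measured members of 18 of the gene lists, 1 point a gene, with the list median as a black bar. Red and blue points are past 1 upward and downward, and dotted lines mark that size. The bar for DNA replication moves from -0.11 to -1.45, and that for ribosomal proteins stays at 0.16 and 0.06.

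Several lists had more members past 1 upward at 24 h than at 6 h, as had all genes (16.3% and 4.92%). Immediate early genes had 3 of 19 past 1 upward at 6 h and 8 at 24 h. CTGF and CYR61, matricellular targets of YAP and TEAD, were the farthest. CTGF stood at 21.2, 18.7 and 18.7 TPM in DMSO and at 25.7, 53.7 and 824 TPM in entinostat, and CYR61 at 140, 155 and 145 TPM and at 180, 306 and 2425 TPM. At 6 h CYR61 was just short of the size, at 0.98. EGR1, a zinc finger factor of this response, was at 2.53 and 3.49 TPM at 6 h and at 1.97 and 25.3 TPM at 24 h.

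For the next lists, 16.3% of all genes were past 1 upward and 7.03% downward at 24 h, and 4.92% upward at 6 h. Of 11 ID genes and BMP or TGF-beta feedback genes 9 were past 1 upward and 1 downward at 24 h, against 1 upward at 6 h, with a 24 h median of 2.07. ID1, an inhibitor of the myogenic bHLH factors, stood at 89.8, 72.9 and 63.9 TPM in DMSO and at 77.9, 125 and 378 TPM in entinostat. NOG, a BMP antagonist, went down, with a 24 h difference of -1.08. Cytoskeleton genes known to respond to HDAC inhibitors had 10 of 13 past 1 upward at 24 h and 0 at 6 h. Among them GSN, the actin-severing gelsolin, was at 37.2 and 72.6 TPM at 6 h and 38.8 and 205 TPM at 24 h. The list of neuronal genes under the repressor REST, which holds REST itself, had 9 of 28 members measured. Of these 8 were past 1 upward at 24 h, 3 of the 9 having entered only through an entinostat sample. The remaining member was REST, with a 24 h difference of -0.11. SYT11 alone was already past 1 at 6 h. TUBB3, neuronal tubulin, stood at 11.9 and 22.6 TPM at 6 h and 12.7 and 130 TPM at 24 h.

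Apoptosis and stress genes went both ways. In the BCL2 family 3 of 14 were past 1 upward at 6 h, BMF, BBC3 and PMAIP1, all of them BH3-only activators of cell death, and they were past 1 at 24 h too. All genes stood at 4.92% upward at 6 h, and at 24 h the family had 4 upward and 1 downward, beside 16.3% and 7.03% of all genes. PMAIP1, encoding NOXA, stood at 29.8 and 67.1 TPM at 6 h and 33.1 and 219 TPM at 24 h. BCL2L2, an antiapoptotic member, was lower at 24 h, with a difference of -1.11. Of 15 stress and p53 target genes 1 was past 1 upward at 6 h and 7 at 24 h, with 1 downward. GADD45B, at 7.81 and 112 TPM at 24 h, and GADD45G, at 57.1 and 16.6 TPM, went opposite ways. Cholesterol synthesis had 6 of 20 members past 1 upward at 24 h, HMGCS1 being at 167 and 432 TPM, and the DMSO level of HMGCS1 had itself moved from 116 to 167 TPM between 1 h and 24 h.

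Counts for chromatin genes are set beside 4.92% of all genes past 1 upward at 6 h, and 16.3% upward and 7.03% downward at 24 h. Of 14 measured linker, variant and polyadenylated histone genes 2 were past 1 upward at 6 h and 5 at 24 h. HIST1H2BD stood at 11.0, 12.7 and 14.4 TPM in DMSO and at 10.6, 32.5 and 81.4 TPM in entinostat. The targets of the drug, HDAC1, HDAC2 and HDAC3, stood at 281, 178 and 95.2 TPM in DMSO and at 271, 181 and 108 TPM in entinostat at 6 h. At 24 h they were higher by 0.32, 0.35 and 0.74. In the list of class I HDACs and their corepressor subunits 4 of 29 members were past 1 downward at 24 h, MTA1, MTA2, CHD3 and MBD3, and 1 was past 1 upward at 6 h, RCOR2. In either direction that is fewer at 24 h than the 23.3% of all genes. CHD3, a chromatin remodeller, was at 114 and 20.1 TPM at 24 h. Among 7 other HDACs HDAC5, HDAC7 and HDAC11 were past 1 downward at 24 h and HDAC9 upward. HEXIM1, an inhibitor of P-TEFb, was at 27.9 and 94.6 TPM at 24 h.

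For the remaining lists, at 24 h and beside 16.3% of all genes, upward counts were 5 of 13 for the NOTCH pathway, with 1 downward, 4 of 11 for collagens, 3 of 8 for interferon and antigen presentation, 2 of 7 for WNT antagonists and targets, 2 of 12 for ERK feedback, 2 of 16 for ATF4 and unfolded protein response genes, and 1 of 4 for metallothioneins. Downward, where 7.03% of all genes stood, heat shock genes had 1 of 11. The list of MEF2 factors and the homeobox and EYA factors that act with them also had 1 of 11 downward. Acetyltransferases and bromodomain readers had 1 of 12 each way. Of 21 ribosomal protein genes and 12 housekeeping genes 0 were past 1 at any time, although GAPDH was at 2790 and 1886 TPM at 24 h.

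The time classes were then read in libraries the sorting did not use. N1302 at 1 µM, LAQ824 at 0.5 and 5 µM and Merck60 at 1 and 10 µM, labelled as HDAC inhibitors, had 1 sample a dose at 6 h. LAQ824 is a hydroxamic acid that acts on many HDACs, and Merck60 is a benzamide directed at HDAC1 and HDAC2. N1302 was set against its own DMSO sample, and LAQ824 and Merck60 share the mean of 4 screen DMSO samples. These held DMSO at 0.1% (labelled low) or 0.2% (labelled high), and the same mean served every dose. The screen samples carry RH41 in their titles and RH4 as cell line. The DMSO sample of N1302 itself differed by 1 or more from DMSO at 6 h of the time course in 1850 genes, so values are relative to each experiment's own control. Over the 12160 genes N1302 had 12% past 1 upward and 23.9% downward, LAQ824 (mean of both doses) 13.6% and 14.5%, Merck60 at 1 µM 0.444% and 0.304%, and Merck60 at 10 µM 1.18% and 0.584%.

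In LAQ824 and N1302 at 6 h the medians of sustained and late genes had the sign they had in entinostat. Of the 449 sustained higher genes 54.8% were past 1 upward in LAQ824 and 46.8% in N1302, and the medians were 1.14 and 0.92. Of the 40 sustained lower genes 72.5% were past 1 downward in LAQ824 and 67.5% in N1302. Late genes, which 1 µM entinostat had not brought past 1 at 6 h, were past 1 upward in 39.3% for LAQ824 and 32.5% for N1302, and late lower genes were past 1 downward in 444 and 372 of 793. The genes past 1 at no time stood at 8.16% and 7.57% upward and 13.2% and 25.5% downward. Of all 2942 genes with a mean DMSO level under 10 TPM, 28.9% were past 1 upward in LAQ824 and 23.7% in N1302. Under that level it was 57.3% and 47.1% of sustained higher genes, and 42.8% and 37.0% of late higher genes. In Merck60 at 10 µM 9.13% of sustained higher and 0.657% of late higher genes were past 1 upward. At 1 µM, the dose and time shared with entinostat, Merck60 had medians of 0.21 in sustained higher genes and 0.09 in late higher genes, and N1302, also at 1 µM, had 0.92 and 0.47. No test of these differences was run, with 1 sample a compound and dose.

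Transient higher genes had positive medians in Merck60, while in LAQ824 and N1302 their medians were near 0. In Merck60 at 10 µM 30 of 134 (22.4%) were past 1 upward and 123 of 134 were above 0, with a median of 0.67 against 0.02 over all genes. At 1 µM 5 of 134 were past 1 upward, all of them small RNA genes, and the median was 0.31 against 0.06. In LAQ824 and N1302 the medians were 0.02 and -0.07, against -0.02 and -0.26 over all genes. There 16.4% and 14.2% were past 1 upward, beside 13.6% and 12.0% of all genes. With a mean DMSO level under 10 TPM it was 18.7% and 15.0% of transient higher genes. That was below the 28.9% and 23.7% of all genes at that level. Among genes with a mean DMSO level under 10 TPM, Merck60 at 10 µM had 2.96% past 1 upward over all 2942 genes and 22.4% over the 107 transient higher ones. Without small RNA genes it had 0.709% over all genes and 18.8% of 117.

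Of the 8 muscle genes named in the class, all were above 0 in Merck60 at 10 µM, all below 0 in N1302, and 6 below 0 in LAQ824, LMOD3 and SRL being the exceptions. SMYD1, SRL, KLHL30, MLIP and HFE2 were chosen after their values were seen, so these counts describe only the genes named. In the whole class of 134, 123 were above 0 in Merck60 at 10 µM, 62 in N1302 and 67 in LAQ824. MYBPH, 1.69 above DMSO in entinostat at 6 h, was 1.08 above in Merck60 at 10 µM, and it stood at -1.42 in LAQ824 and -1.60 in N1302. MYH8 was at 1.05 in entinostat, above 1 in Merck60 at 10 µM, -0.86 in LAQ824 and -0.96 in N1302. SMYD1 and HFE2, chosen after their values were seen, were at 0.81 and 1.26 in Merck60 at 10 µM, at -1.33 and -1.14 in LAQ824 and at -2.02 and -2.61 in N1302. LMOD3 was at 1.07 in Merck60 at 10 µM, 0.59 in LAQ824 and -0.70 in N1302, and SRL at 1.00, 0.58 and -0.83. KLHL30 and MLIP were at 0.76 and 0.66 in Merck60 at 10 µM, -1.75 and -0.72 in LAQ824, and -2.87 and -0.69 in N1302. Doses differ between the compounds here, and cell line titles differ as given above.

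**Figure D5:**
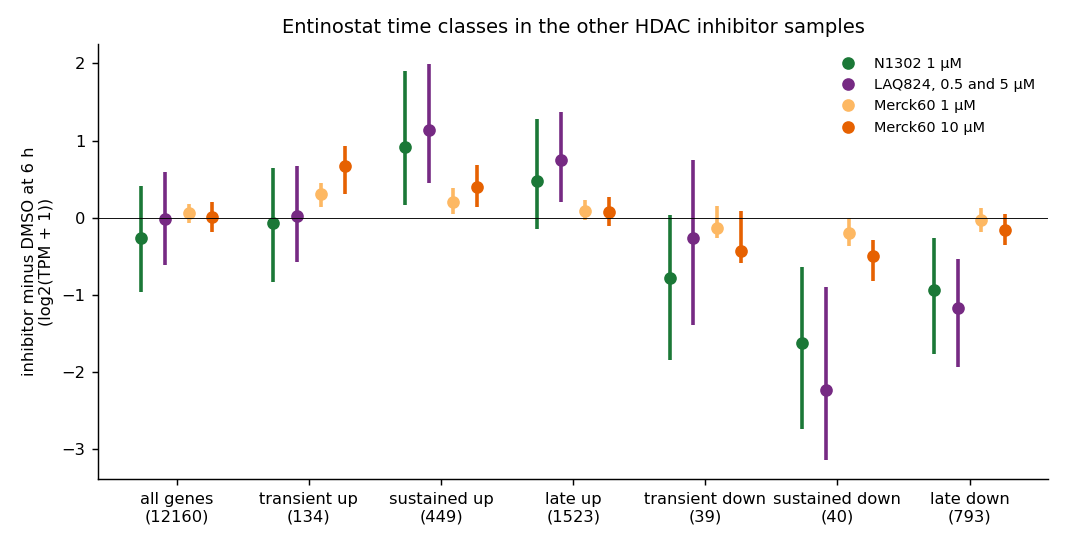
Median (point) and interquartile range over genes (line) of the 6 h difference between each HDAC inhibitor and its DMSO in log2(TPM + 1), for all 12160 genes and for each entinostat time class, with the number of genes in brackets. The transient higher genes have medians of 0.67 in Merck60 at 10 µM and 0.02 in LAQ824, while the sustained higher genes have 0.40 and 1.14.

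Some lists that were late in entinostat also differed by compound at 6 h. The CR TF medians were -2.42 in N1302 and -2.63 in LAQ824, lower than the -0.71 of entinostat at 6 h and the -1.95 at 24 h, and -0.20 and -0.22 in Merck60 at 1 and 10 µM. The muscle synapse median was -0.91 in N1302 and -1.38 in LAQ824, and 0.04 and 0.03 in Merck60 at 1 and 10 µM. The DNA replication list, which had its drop in entinostat at 24 h, stood at -0.19 in N1302 and -0.22 in LAQ824 at 6 h. Over all genes the medians were -0.26 in N1302 and -0.02 in LAQ824. The ID and BMP list stood at 0.57 in N1302 and -0.53 in LAQ824, beside 0.52 in entinostat at 6 h.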

How the data were processed

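RNA-seq of RH4 cells was analysed in 6 samples, and 10 further samples (N1302, LAQ824 and Merck60 with their DMSO) were set beside them. Per the study's methods, libraries were made from poly-A RNA, STAR aligned the reads to hg19, and RSEM gave gene levels. The values are TPM as deposited. In the RH4-titled samples they fit whole read numbers in every gene above 0, as given below. The counting step was not checked, and so neither was whether RSEM gave these values. The labels name 1 sample for each time and treatment in the time course, and nothing was pooled among these 6 samples.

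Read numbers were recovered from the steps between TPM values over the 8 RH4-titled samples, as the smallest whole numbers that fit (100% of 22255 genes above 0, within 0.01 reads). They describe depth and counting error only. Differences were taken in log2(TPM + 1), which understates changes of genes with low values, against DMSO of the same time, as in the study's methods. No test, p-value or SE was computed. Because TPM is scaled to a fixed total, a difference is relative to all transcripts.

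Genes named are, per class and direction, the 5 with the largest difference that were clear of the DMSO spread and not small RNA genes, beside members of 33 gene lists and any gene said to be chosen after its values were seen. Some genes that this rule selects are not reported here. The genes, lists and classes were chosen with earlier results of these data known. Promoters came from RefSeq tables (GRCh38.p14), matched by symbol or older symbol for 78.6% of the genes.

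Alternatives were a pseudocount of 0.1, median-ratio scaling over 8438 genes, no filter, a filter at 20 TPM, the mean of the DMSO samples as control, the DMSO sample of N1302 as 6 h control, sizes of 1.5-fold and of 2, the size required against every DMSO sample, and leaving out small RNA genes. Scripts were tested on simulated data and ran in Python 3.11.15 with numpy 2.4.6 and pandas 2.3.3.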

Additional observations from a re-analysis of the deposited data

Results flagged for a closer look

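Between 6 h and 24 h 16 genes were past a difference of 1 in opposite directions, 7 of them small RNA genes. The other 9 were flagged because the single sample of 1 time moved one way and that of the other time the opposite way, and the difference between times was not tested. AFAP1L2, an actin-associated adaptor, stood at 15.2 TPM in DMSO and 34.0 TPM in entinostat at 6 h and at 23.7 and 1.90 TPM at 24 h, with differences of 1.11 and -3.09. APOBEC2, a muscle member of the cytidine deaminase family, had differences of 1.21 and -1.33, and its 24 h value of 1.49 TPM rested on 29 reads. C1QTNF1, a secreted protein, had 1.45 and -1.21. ART3, an ADP-ribosyltransferase family member, had 1.16 and -1.57. FRG2B, a member of a repeated family whose copies could share reads, had 1.64 and -1.61. The noncoding or uncharacterised genes LOC100130370, PGM5-AS1 and SSTR5-AS1 had 1.32, 1.31 and 1.15 at 6 h, and -1.01, -1.16 and -1.19 at 24 h.

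CSNK2A3 had 2.97 at 6 h and -3.39 at 24 h. Its 24 h difference rests on a DMSO value of 33.7 TPM beside 2.79 and 2.44 TPM in the other DMSO samples, and its 6 h and 1 h values in entinostat were as high as that DMSO value.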

How the results depend on the processing

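No paired analysis was possible because each comparison at a time had 1 sample on each side, and a fit of 1 treatment effect over the 3 times was not run. Counts past 1 at 1, 6 and 24 h were 53, 681 and 2839, and classes held 22 early, 173 transient, 489 sustained, 2316 late and 37 mixed genes. These counts take both directions together and are given below where they moved by more than 1.5 times. A pseudocount of 0.1 gave 108 genes at 1 h, 773 sustained and 71 mixed genes, and 126, 129 and 152 genes between DMSO at 6 and 1, 24 and 6, and 24 and 1 h. Median-ratio scaling moved none of these by that much, although lower genes at 6 h numbered 52 in place of 83. It shifted the median difference by 0.10 at 6 h and 0.08 at 24 h, and kept 449 of 449 sustained higher but 20 of 40 sustained lower genes. Without a filter 210 genes were past 1 at 1 h, with 108 early, 366 transient and 105 mixed genes, and 238, 240 and 225 genes between DMSO times. A filter at 20 TPM left 7, 284 and 1703 genes at 1, 6 and 24 h, 3 early, 48 transient, 231 sustained, 1464 late and 8 mixed genes, and 8, 12 and 13 between DMSO times. With the mean of the 3 DMSO samples as control 17 genes were mixed and 15 in place of 27 were higher at 1 h. With the DMSO sample of N1302 as 6 h control 2596 genes were past 1 at 6 h, 8 were early, 1722 transient and 270 mixed, IGF2-AS reversed at 6 h, to 0.38, and DMRTA2, DBX1 and GMEB2 were no longer past 1 at 6 h, at -0.01, -0.04 and -0.49. A size of 1.5-fold gave 148, 2323 and 5510 genes at the 3 times, 34 early, 579 transient, 1652 sustained, 3734 late and 133 mixed genes, and 208, 203 and 343 between DMSO times. A size of 2 gave 10, 41 and 745 genes, 6 early, 16 transient, 22 sustained, 721 late and 4 mixed genes, and 10, 10 and 7 between DMSO times. The size required against every DMSO sample gave 13 and 385 genes at 1 h and 6 h, 11 early, 83 transient, 302 sustained and 1 mixed gene. Leaving out small RNA genes gave 4 genes at 1 h, 1 early and 10 mixed, and 6, 4 and 16 between DMSO times. Of 2 alternatives chosen after seeing the data, the filter on DMSO samples alone gave 317 and 1883 genes at 6 h and 24 h, 109 transient and 193 sustained genes, with 17 higher at 1 h, and leaving out the DMSO sample of the same time gave 21 mixed genes, with 16 higher at 1 h. For single named genes, 181 of 226 recomputed differences lay within the counting interval of the value given, and 1 reversed. The 226 include values that could not move, since the filter on DMSO samples leaves a difference unchanged. The DMSO sample of N1302 as 6 h control likewise leaves the 1 h and 24 h differences unchanged. The count of 181 therefore overstates how stable the named differences are. The cause of the moves outside the interval was not tested. Depth limits genes under about 1 TPM in DMSO, whose differences rest on few reads, and culture-to-culture variation is not known for any gene.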
